A study of Canis lupus familiaris with 109 samples.

Results

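Methylation near the ends of the dog autosomes was examined at 40147 of the 304191 cytosine positions listed in the main table of a dog blood methylation study. Distal positions lay within 2 Mb of the largest position that a second, wider table from repeat captures lists for the same chromosome, or past it, and there were 11494 of them (3.78% of all positions). Proximal positions had a coordinate under 5 Mb, and there were 28653 of them (9.42%). Both sets were compared with the remaining 264044 positions. Membership was decided by coordinates alone and by no methylation value, though the rule was chosen with earlier results of these data known.

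The study measured DNA methylation in whole blood of domestic dogs (Canis lupus familiaris) by targeted bisulfite sequencing, in which bisulfite turns unmethylated cytosines into bases read as thymine and leaves methylated ones as they are, and probes pull down chosen regions. Its title names the comparison of dog ageing with human ageing. The labels list 109 samples aged 0.134 to 15.5 years with no genotype or treatment: 94 fall into 13 juvenile, 6 adolescent, 35 mature and 40 senior samples (stages set here from the labelled age), and beside these are 6 repeat captures, 1 sample analysed only with them and 8 samples of low coverage. The 95 library codes of the main table and the 7 of the repeat table match none of these labels. Libraries therefore carry no age, stage or sex here, and values over libraries are given as medians and ranges over dogs of unknown age. Methylation fractions (methylated share of reads, 0 to 1) were deposited without read counts, so the depth behind a value is unknown and no interval is given. The tables hold methylation fractions only, so blood was not checked against marker genes, and the mix of blood cell types in each library was not measured.

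In mammals, methylation is found mainly at CpG sites, cytosines followed by guanine. Densely packed CpGs, as in the CpG islands at many promoters, are usually unmethylated, while isolated CpGs are mostly methylated, so that the local density of CpGs has to be matched before places in the genome are compared. Dog autosomes are acrocentric: by convention coordinates start at the end with the centromere and run towards the other telomere. Where a chromosome follows this convention, its proximal positions lie towards the centromere and its distal positions towards the far telomere. Whether each chromosome does so in the coordinates used here was not checked, so distal and proximal name coordinates only. Ends of mammalian chromosomes next to telomeres tend to be rich in G and C and in recombination, and in dogs, which lack a functional PRDM9 (the protein that places recombination hotspots in most mammals), recombination is concentrated at CpG-rich sites.

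Density counts how many positions the table lists in the 100 bp before and after a position, itself included. It counts listed positions and not CpGs, so positions listed at neighbouring bases each add to it. Its median was 7 among the distal, the proximal and the remaining positions. The main table listed 151 positions per Mb in both the distal and the proximal windows, against 137 per Mb in the rest. The wider repeat table was more uneven, with 1261 positions per Mb in the distal windows, 901 in the proximal windows and 799 in the rest. The main table held 9.99% of the distal positions of the repeat table, 14.99% of the proximal and 15.2% of the remaining ones. The distal positions were spread over all 38 autosomes, with 6 to 1240 on each (median 187), and chromosomes 35, 18, 20, 7 and 2 held 4573 of them (39.8%). The proximal positions numbered 97 to 4262 per chromosome (median 552).

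Positions at the distal ends were methylated more often than interior positions of the same density. A position was called unmethylated when its median over the 95 libraries was under 0.1 and methylated when it was over 0.8, and the shares over the whole table were 50.6% unmethylated and 32.8% methylated. Of the distal positions, 3812 (33.2%) were unmethylated, against 51.04% of the remaining positions weighted to the same densities, a difference of -17.9 percentage points. Methylated were 5497 distal positions (47.8%), against 32.04% of the matched remaining positions, a difference of 15.8 points. The mean fraction was 0.529 at distal positions and 0.376 at matched remaining positions. When 1 position per kb was kept, which gives isolated positions the same weight as crowded ones, the difference in the mean fraction was 0.0958 in place of 0.153.

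The proximal ends differed from the interior in the same direction by a smaller amount. Of the proximal positions, 13151 (45.9%) were unmethylated, against 50.4% of the matched remaining positions, and 10709 (37.4%) were methylated, against 32.7%. The mean fraction was 0.425 at proximal positions and 0.383 at matched remaining positions, a difference of 0.0420. This difference was 0.0189 with a boundary at 10 Mb in place of 5 Mb. It was 0.0880 when each chromosome was compared with its own interior and all chromosomes were weighted equally.

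The gap between the distal ends and the interior was widest at intermediate to high density. At density 1 the sets were close: 61.2% of 544 distal, 60.7% of 1833 proximal and 58.6% of 16568 remaining positions were methylated. At density 4 to 7, 63.0% of distal, 52.7% of proximal and 45.3% of remaining positions were methylated. At density 8 to 15, where most interior positions are unmethylated, the methylated share was 43.4% of 3046 distal, 24.96% of 7989 proximal and 17.7% of 73901 remaining positions. At density 16 to 31 it was 22.4% of 1512 distal, 4.92% of 4635 proximal and 3.91% of 49012 remaining positions. Methylated positions of density 16 or more, the reverse of the usual state of dense CpGs, numbered 350 among 2371 distal positions (14.8%) and 228 among 5607 proximal positions (4.07%), against 1937 among 57069 remaining positions (3.39%). The 350 lay on 16 chromosomes, with 74 on chromosome 2, 52 on chromosome 20, 50 on chromosome 3, 33 on chromosome 10 and 32 on chromosome 24.

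**Figure D1:**
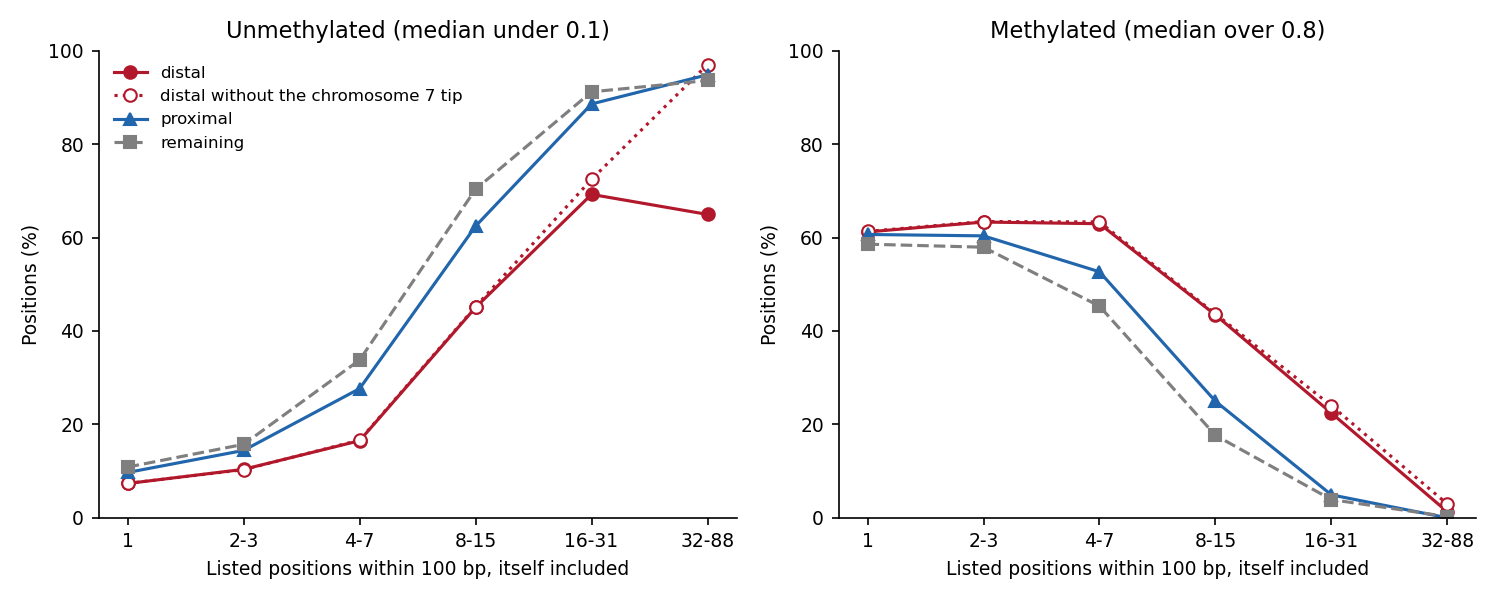
Share of positions (y axis, %) that are unmethylated (left) or methylated (right) by the number of listed positions within 100 bp (x axis), for distal (red), proximal (blue) and remaining positions (grey), with open circles for distal positions without 640 positions at the tip of chromosome 7. At density 8 to 15, 43.4% of distal, 24.96% of proximal and 17.7% of remaining positions are methylated, while at density 1 the values are 61.2%, 60.7% and 58.6%.

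At the highest densities, 32 to 88, 65.0% of 859 distal positions were unmethylated, against 94.9% of 972 proximal and 93.6% of 8057 remaining positions. That distal value rests on 1 place, a block of 640 positions at the tip of chromosome 7 which lies past the last repeat-table position. Without it, 97.1% of the 373 other distal positions of this density were unmethylated. The block was singled out after its values were seen, and it makes up 5.57% of the distal positions. Without it the distal positions differed from matched remaining positions by -15.9 points in the unmethylated share, 16.9 points in the methylated share and 0.157 in the mean fraction.

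The difference pooled over chromosomes was graded along the distal end. From 0.1 to 0.25 Mb before the last repeat-table position, 1041 positions averaged 0.715, against 0.428 at matched remaining positions. From 0.5 to 1 Mb, 2701 positions averaged 0.584, against 0.411. From 1.5 to 2 Mb, 2761 positions averaged 0.427, against 0.366. The difference thus ran from 0.288 through 0.173 to 0.0601 with growing distance, but the order was not strict, since the 736 positions in the last 0.1 Mb differed by 0.210. Past the boundary of 2 Mb the difference was 0.0836 from 2 to 3 Mb and 0.0680 from 3 to 5 Mb, then 0.0137 from 5 to 10 Mb and -0.0152 from 10 to 20 Mb. These outer bins are themselves part of the remaining positions. By chromosome, the level was higher than at matched remaining positions on 23 of 26 chromosomes with at least 10 positions at 0.1 to 0.25 Mb. It was higher on 15 of 21 in the last 0.1 Mb, 19 of 25 at 0.25 to 0.5 Mb and 25 of 30 at 0.5 to 1 Mb. Farther in, the counts were 24 of 32 at 1 to 1.5 Mb and 22 of 31 at 1.5 to 2 Mb. Outside the distal set they were 28 of 35 at 2 to 3 Mb and 30 of 37 at 3 to 5 Mb. Between 0.1 and 2 Mb the pooled difference thus fell from bin to bin, while the counts of chromosomes did not fall steadily.

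From the first base of the chromosome the differences were smaller and their order was not strict either. The difference was 0.0741 in the first 0.25 Mb, 0.0130 from 0.25 to 0.5 Mb, 0.0646 from 0.5 to 1 Mb and 0.0490 from 1 to 2 Mb. It was 0.0600 from 2 to 3 Mb, 0.0407 from 3 to 4 Mb and 0.00205 from 4 to 5 Mb. Beyond 5 Mb it was 0.00631 up to 7 Mb and -0.0166 from 7 to 10 Mb. In the first 0.25 Mb the level was higher than at matched remaining positions on 13 of 22 chromosomes with at least 10 positions.

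**Figure D2:**
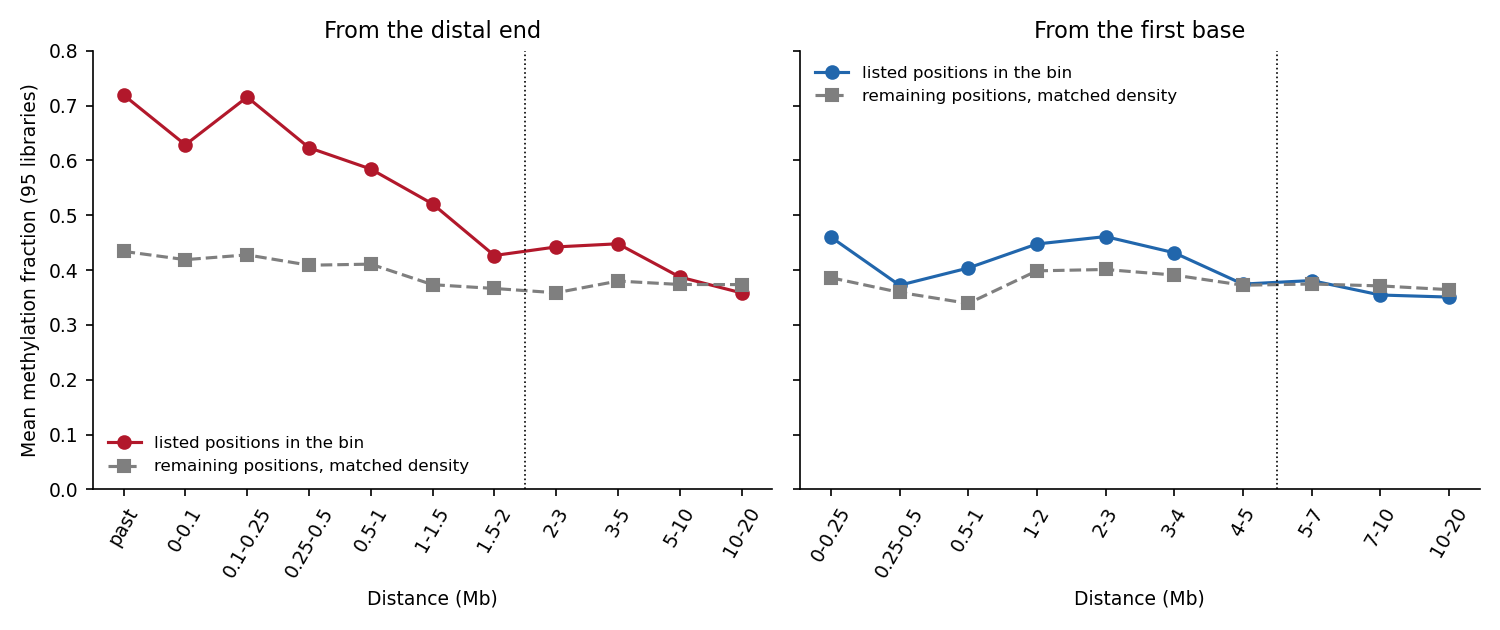
Mean methylation fraction over 95 libraries (y axis) by distance in Mb (x axis, bins of unequal width) from the last repeat-table position (left, red) or the first base (right, blue), with remaining positions of matched density in grey and a dotted line at the boundary of 2 Mb (left) or 5 Mb (right). The bin "past" holds 57 positions at or past the last repeat-table position, without the tip of chromosome 7; the red points run from 0.715 at 0.1 to 0.25 Mb to 0.427 at 1.5 to 2 Mb, while the blue points stay between 0.372 and 0.461 up to 5 Mb.

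Next to the boundaries, the 498 distal positions at 1.9 to 2 Mb averaged 0.397, against 0.351 at matched remaining positions, and the 340 positions just outside, at 2 to 2.1 Mb, averaged 0.652, against 0.446. The difference was thus 0.0462 just inside and 0.206 just outside. The 464 proximal positions from 4.9 to 5 Mb averaged 0.492, against 0.464, and the 547 just outside averaged 0.428, against 0.410.

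Chromosomes differed widely among themselves. Distal levels were above those of matched remaining positions on 33 of 38 autosomes, and on 34 when each was compared with its own interior. The median difference over chromosomes was 0.208 and the range -0.155 to 0.484. Among the 18 chromosomes with at least 200 distal positions, 15 were higher. On chromosome 3, 330 distal positions averaged 0.841, against 0.357 at matched remaining positions, and 14 of the 330 were unmethylated. Chromosome 1 followed with 0.728 against 0.365, and chromosome 25 with 0.732 against 0.374. On each of these 3 chromosomes the distal level was the higher one in 95 of 95 libraries.

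The distal level was below that of matched remaining positions on 5 chromosomes, numbers 35, 18, 17, 32 and 9, which carry between 165 and 1240 distal positions. On chromosome 35, with 1240, the distal level was 0.292, against 0.335 at matched remaining positions. On chromosome 18, with 980, it was 0.282, against 0.335. On both, the distal level was the higher one in 0 of 95 libraries. Chromosome 17 was close to even, with 0.372 against 0.378 and a higher distal level in 11 of 95 libraries. On chromosome 9 the difference was only -0.000204. Against their own interiors, chromosomes 17 and 9 were higher at the distal end, with differences of 0.0181 and 0.0270. Chromosome 33 was lower in that comparison, with -0.0108, so the list depends on the comparison. The lowest difference was on chromosome 32, where 176 distal positions averaged 0.182, against 0.337, and 135 of them were unmethylated. Chromosomes 35 and 18 carry the most positions in the pooled value. The difference was 0.208 with all chromosomes weighted equally and set against their own interiors, in place of 0.153.

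Proximal levels were above those of matched remaining positions on 25 of 38 autosomes, or 28 against their own interior. The median difference was 0.0744 and the range -0.111 to 0.353. Chromosome 17 had the highest value, with 615 proximal positions at 0.783, against 0.430 at matched remaining positions. Chromosome 37 stood at 0.786 against 0.440, and chromosome 18 at 0.769 against 0.486. At the low end, 849 proximal positions of chromosome 24 averaged 0.220, against 0.331, those of chromosome 23 averaged 0.303, against 0.383, and those of chromosome 10 averaged 0.281, against 0.359. The direction was the same in 95 of 95 libraries on each of these 6 chromosomes.

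Chromosome 12, which carries the dog major histocompatibility complex, held 4262 proximal positions (14.9% of the proximal set). Their mean fraction was 0.332, against 0.359 at matched remaining positions of all chromosomes and 0.29998 at those of chromosome 12 alone, so the direction depends on the comparison. Chromosome 27, which carries the HOXC gene cluster, held 1922, with a mean fraction of 0.354, against 0.362 over all chromosomes and 0.2998 within chromosome 27.

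The level at one end of a chromosome said little about the other. Over the 38 autosomes the distal and proximal differences had a Pearson's r of -0.0865 and a Spearman's rho of -0.0920, given as a description since the chromosomes share the same libraries and the same remaining positions. Both ends were higher than matched remaining positions on 21 chromosomes, the distal end alone on 12, the proximal end alone on 4, and neither on 1. Chromosomes 17 and 18 were among the highest at the proximal end and among the lowest at the distal end.

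**Figure D3:**
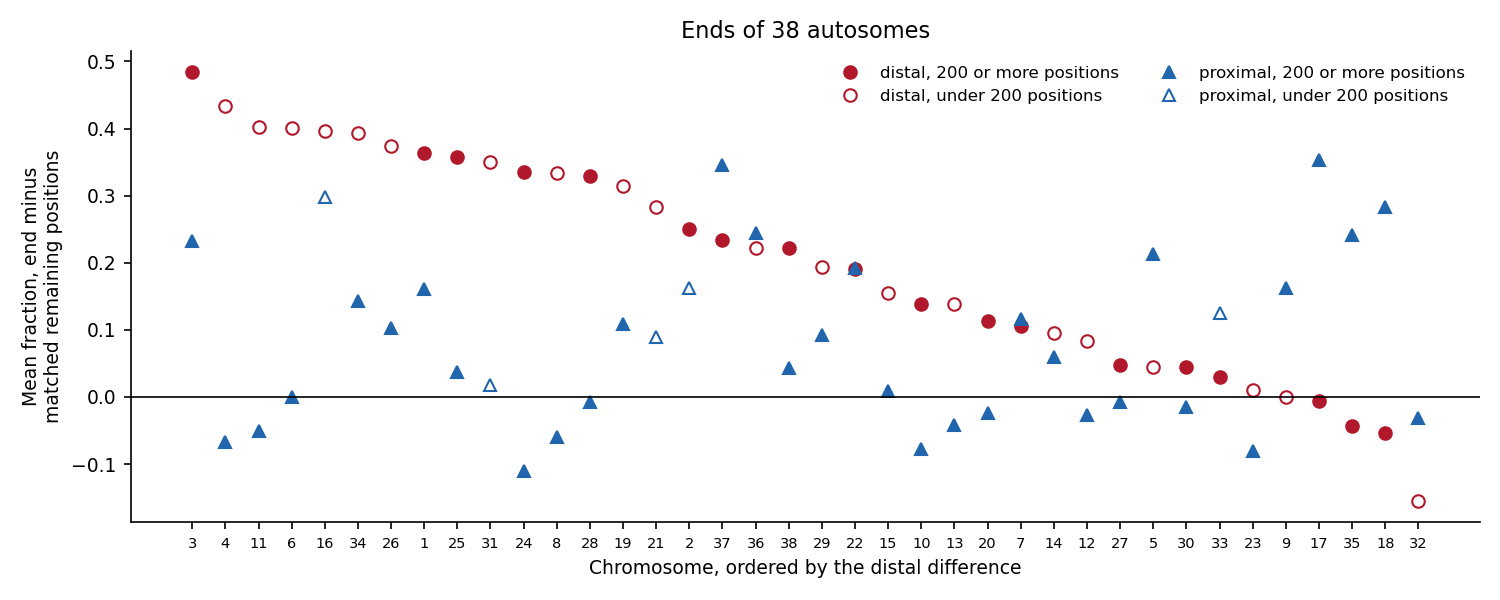
Difference in mean methylation fraction between a chromosome's end and remaining positions of matched density (y axis) for 38 autosomes ordered by the distal difference (x axis), with red circles for distal and blue triangles for proximal ends, open where there are under 200 positions. Distal values run from 0.484 on chromosome 3 to -0.155 on chromosome 32, and the proximal values do not follow that order.

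The distal and proximal differences varied little between libraries. Over the 95 libraries the difference between distal and matched remaining positions had a median of 0.153 and lay between 0.145 in the library coded L1_A10 and 0.163 in L9_A18. It was above 0 in 95 of 95 libraries. The proximal difference had a median of 0.0419, with a lowest value of 0.0391 and a highest of 0.0458, and was above 0 in 95 of 95. By the 10 prefixes of the library codes, whose meaning the labels do not give, the median distal difference was 0.152 to 0.154. The mean fraction itself was 0.529 at distal positions (lowest 0.509, highest 0.544) and 0.425 at proximal positions (0.411 to 0.435). At remaining positions, here not matched for density, it was 0.371 (0.358 to 0.378). All libraries were measured at the same positions, so these ranges show the spread between libraries and not that between positions or chromosomes.

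Pooled over positions, a library's level at the ends moved with its level elsewhere. The block at the tip of chromosome 7 did not share this. Across libraries its level had an r of 0.0428 with the remaining level and 0.00582 with the level of the other distal positions. The distal correlations below include the block. Across 95 libraries the distal level was correlated with the remaining level (Pearson's r = 0.868, Spearman's rho = 0.836, two-sided permutation test, p = 1e-05 for each, the smallest that 100000 permutations can give, and 1e-05 after Benjamini-Hochberg adjustment over the 3 relations computed). With the 2 most distant libraries left out r was 0.824, and the 10 code prefixes taken one at a time gave values between 0.244 and 0.965. The proximal level was correlated with the remaining level with r = 0.944 and rho = 0.923 (permutation p and adjusted p = 1e-05), r was 0.933 without the 2 farthest libraries, and the prefixes gave 0.8004 to 0.986. The distal level was correlated with the proximal level with r = 0.835 and rho = 0.793 (permutation p and adjusted p = 1e-05), r was 0.796 without the 2 farthest, and the prefixes gave 0.261 to 0.969.

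**Figure D4:**
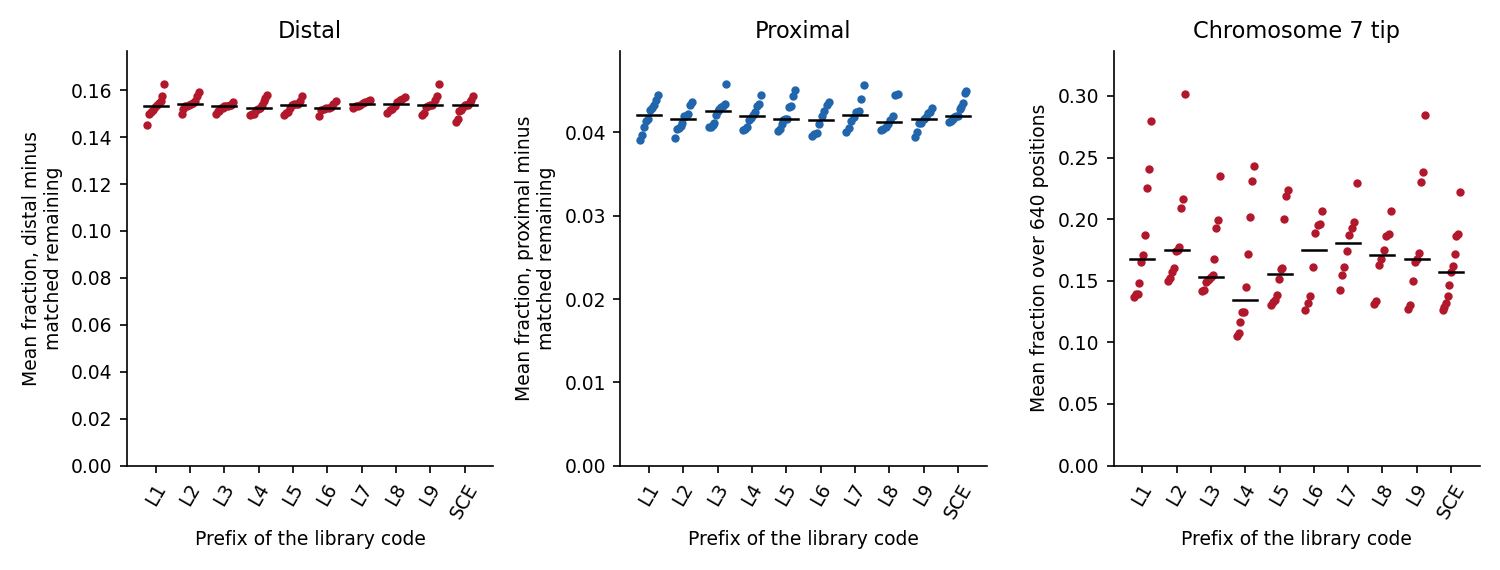
Values of 95 libraries (points, sorted within each prefix of the library code on the x axis, black bar at the median): the distal (left) and proximal (middle) difference in mean fraction from matched remaining positions, and the mean fraction over the 640 positions of the chromosome 7 tip (right). The distal differences keep to 0.145 to 0.163 and the proximal ones to 0.0391 to 0.0458. The tip, given as a mean fraction and not as a difference, runs from 0.105 to 0.302.

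Differences between libraries at single positions were read from the SD over the 95 libraries. An SD over 0.1 was found at 15.2% of all positions. The share was 19.1% of distal positions, against 15.3% of matched remaining positions. Without the tip of chromosome 7 it was 16.7%, against 15.6%, a difference of 1.10 points in place of 3.79. The proximal share was 15.4%, against 15.3%, and the sign of this small difference depends on the processing. The share also depends on how exact values of 1.0 at otherwise unmethylated positions are read. Such values made up 2.23% of the cells at distal, 1.85% at proximal and 1.89% at remaining positions with a median under 0.05, and they were set to 0.01. With the values as deposited the distal difference was -7.67 points and the proximal difference -2.45 points. Values of 1.0 at positions with a median from 0.05 to 0.5 were kept. They made up 1.51% of cells at the tip of chromosome 7, 0.355% at other distal and 0.377% at remaining positions of that level. No SD share was computed with these set to 0.01 as well, so their part in the distal share is not known.

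Libraries differed in the level of the block at the tip of chromosome 7. Its 640 positions, 0 of which are in the repeat table, span 25600 bp from 80948793 to 80974392, starting 10829 bp past the last position the repeat table lists there. They are packed, with a median density of 46 and a highest of 88. Many of them are listed as pairs at neighbouring bases, and each member of a pair counts in the density and in the numbers of positions. Whether such pairs are both strands of the same CpG was not tested. Over the 95 libraries the mean fraction of the block had a median of 0.163, a lowest value of 0.105 in L4_A1 and a highest of 0.302 in L2_A19. The fifth lowest and the fifth highest library stood at 0.125 and 0.240. By code prefix the median was lowest in L4, at 0.135, and highest in L7, at 0.181, and the range within single prefixes was wider than that.

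Low partial levels were frequent in the block. Of its 640 positions 224 were unmethylated by the limit of 0.1, 392 had a median from 0.1 to 0.5 and 8 were over 0.8. Of its 486 positions with a density of at least 32, 290 (59.7%) had a median from 0.1 to 0.5, against 359 of 9402 (3.82%) in the rest of the table and 0 of the 373 others at distal ends. With the lower limit at 0.05 the counts were 443 (91.2%) in the block, 565 (6.01%) in the rest and 0 at the other distal ends. The block held 7 runs, which are stretches of at least 10 listed positions with gaps of up to 100 bp. Their median levels were between 0.115 and 0.419, with the highest in the run of 28 positions at 80948793 to 80949341 and the lowest in the run of 94 positions at 80973496 to 80973726. The SD over libraries was 0.0308 to 0.0692 in these runs, so none passed the limit of 0.1 used for runs below. L2_A19 was the highest library in 4 of the 7 runs and L9_A18 in 2. In the block, 0.360% of cells were taken as filled in, against 0.852% over all distal positions. At its 48 positions with a median under 0.05, 8.90% of cells were exactly 1.0, against 2.23% over all such distal positions, and these cells were set to 0.01 and do not enter the block's level. Values of 1.0 that were kept made up 1.51% of cells at its 568 positions with a median from 0.05 to 0.5, against 0.355% at other distal positions and 0.377% at remaining positions of that level. With these set to 0.01 as well, which was chosen once the data had been seen, the block's level had a median of 0.158, a lowest value of 0.0754 in L4_A1 and a highest of 0.302 in L2_A19, so its lower end depends on how they are read.

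**Figure D5:**
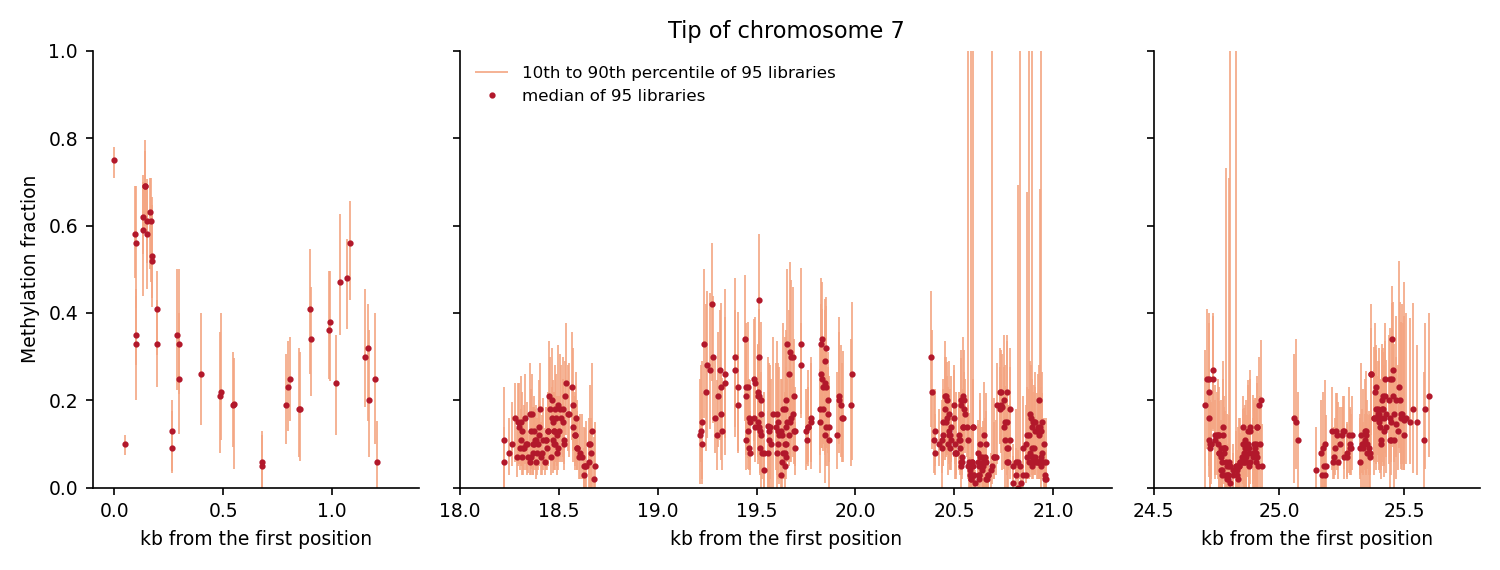
Methylation fraction (y axis) at 629 of the 640 positions of the chromosome 7 tip by distance in kb from its first position (x axis, 3 windows with the gaps between them left out, 11 positions not shown), with the median of 95 libraries as a point and the 10th to 90th percentile as a line. Most medians lie between 0.05 and 0.5, and the lines that reach 1.0 are at positions where many libraries hold the value 1.0.

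Runs let whole regions be compared. There were 257 distal, 666 proximal and 6351 remaining runs. Over all runs 71.3% had a median level under 0.1 and 15.4% a level over 0.8. Of the distal runs 126 (49.0%) were unmethylated, against 70.4% of remaining runs weighted to the same number of positions, and 95 (36.97%) were methylated, against 15.6%. Of the proximal runs 439 (65.9%) were unmethylated, against 71.8%, and 135 (20.3%) were methylated, against 14.5%. Methylated distal runs were found on 29 chromosomes and unmethylated ones on 23. Their median lengths were 170 bp and 152 bp, so the methylated runs were not the shorter ones.

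The ends thus held regions in opposite states. The longest unmethylated distal run by number of positions, 91 positions on chromosome 14 from 59066915 to 59067309, had a level of 0.00187 in the median library and at most 0.00626 in any library. A run of 75 positions on chromosome 20 from 56730314 to 56730716 had 0.00213. The longest methylated distal run, 47 positions on chromosome 24 from 47027960 to 47028431, stood at a median of 0.893 with a range of 0.855 to 0.936. It was followed by 41 positions on chromosome 10 from 67555153 to 67555502, at 0.945 with a range of 0.901 to 0.970. Both methylated runs were over 0.5 in 95 of 95 libraries, so these stretches of closely listed positions were methylated in each library.

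At the proximal end the longest unmethylated run held 92 positions on chromosome 12 from 434282 to 435446, with a median level of 0.00217, and the next 86 positions on chromosome 8 from 2984600 to 2985274, with 0.00198. The longest methylated ones held 52 positions on chromosome 36 from 2549663 to 2550538, with a median of 0.925, and 51 positions on chromosome 17 from 1009338 to 1009942, with 0.913. The run on chromosome 36 reached down to 0.712 in the library L3_A1. The distal run farthest past the last repeat-table position, 14 positions on chromosome 16 from 59367413 to 59367584, stood at 0.830, whereas the 7 runs of the chromosome 7 tip, also past that position, stood at 0.115 to 0.419. The proximal run with the lowest coordinate, 29 positions on chromosome 25 from 17229 to 17451, had 0.926.

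Runs with an SD over 0.1 between libraries were few, 6 of 257 distal (2.33%) and 15 of 666 proximal (2.25%), against 1.22% and 1.13% of remaining runs of the same size and 1.25% of all runs. The widest distal spread was in 12 positions on chromosome 22 from 59940554 to 59940736, with a median of 0.228, a lowest value of 0.0517 and a highest of 0.577. On chromosome 26, 10 positions from 38573286 to 38573396 had a median of 0.258, a lowest value of 0.0420 and a highest of 0.608. That highest value came from L1_A7, the library with the largest share of filled-in cells in the main table (22.4%). On chromosome 2, 12 positions from 84675881 to 84676035 had a median of 0.228 and ran from 0.0267 to 0.676. In each of these 3 runs between 28 and 43 libraries were under 0.2 and between 6 and 9 were over 0.5.

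Wider spreads were found at the proximal end. On chromosome 28, 49 positions from 3528117 to 3528456 had a median of 0.190, a lowest value of 0 and a highest of 0.920, with 50 libraries under 0.2 and 13 over 0.5. A further 15 positions from 3513875 to 3514117 on the same chromosome ran from 0.0267 to 0.805, again with 13 libraries over 0.5. On chromosome 27, 14 positions from 1213231 to 1213382 had a median of 0.358 and ran from 0.0250 to 0.763.

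A median level between 0.4 and 0.6 was found in 5 distal runs (1.95%, 4 without the chromosome 7 tip) and 10 proximal runs (1.50%), against 129 remaining runs (2.03%) and 1.98% of all runs, so the ends were near the share of the whole table. The examples are those with the smallest SD. At the distal end the median was 0.599 over 12 positions on chromosome 20 from 57529332 to 57529545 (0.469 to 0.690), and 13 positions on chromosome 2 from 84104508 to 84104735 had 0.511 (0.410 to 0.638). At the proximal end 26 positions on chromosome 27 from 3789600 to 3789947 had 0.513 (0.443 to 0.643), and 10 positions on chromosome 17 from 3585110 to 3585189 had 0.504 (0.335 to 0.577).

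The repeat table offers positions outside the main table. Among those more than 100 bp from any main-table position, 65054 distal positions averaged 0.538, against 0.277 at remaining positions of matched density, a difference of 0.261. The 7 libraries of this table gave 0.254 to 0.267. The distal level was the higher one in 7 of 7 libraries and on 28 of 36 chromosomes with at least 50 such positions, and the sign was that of the main table on 31 of the 36. These are other places in the genome, and whether the dogs of the 2 tables are the same is not given by the labels.

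For the proximal ends the repeat table gave a split picture. The 93557 proximal positions averaged 0.327, against 0.270 at matched remaining positions, and were higher in 7 of 7 libraries. Chromosome by chromosome, 19 of 38 were higher, with a median difference of 0.00222 and a range from -0.138 on chromosome 30 to 0.451 on chromosome 18. The pooled proximal difference and its median over chromosomes were thus far apart.

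In the repeat table, too, the methylated share at dense positions was higher at the distal ends. Density was counted there among that table's own, more numerous positions, so its classes are not those of the main table. In the main table, 1.28% of distal and 0.261% of remaining positions with a density of 32 to 88 were methylated. At 32 to 90 positions within 100 bp, 32.6% of 23910 distal positions were methylated, against 10.0% of 39491 proximal and 9.38% of 368936 remaining positions. At 16 to 31 the shares were 60.1% of distal, 37.7% of proximal and 26.8% of remaining positions.

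In 6 pairs of libraries whose codes share a number, with 1 code of each pair containing CHYB6 and the other Pilot, the distal positions had a correlation across positions of 0.975 to 0.983. At distal positions with a level of 0.1 to 0.9 the median absolute difference within a pair was 0.06 to 0.09, the same as at proximal positions. The difference between distal and matched remaining positions was 0.160 to 0.168 in the CHYB6 libraries and 0.161 to 0.166 in the Pilot libraries. Whether the same number stands for the same dog is not given by the labels.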

How the data were processed

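The deposited values are methylation fractions for each position in each library, with neither counts nor coverage. The submitters' processing notes name CanFam3.1 as the build and list Bowtie2 2.1.0, Bismark 0.14.3 and Trim Galore. Filters and the way in which empty cells of the main table were filled are not given in the sources used here. Cells with more than 2 decimals (0.781%) were taken as filled in. The table mapped to human probes has no dog positions and was not used. Coordinates are the first that the tables list, on CanFam3.1, with an uncertainty of 1 bp. No genome of that build was at hand, so no sequence and no gene is given for the runs.

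A value of 1.0 (tolerance 1e-06) was replaced by 0.01 wherever the position's median was under 0.05. Remaining positions were weighted to the members' exact density, with densities from 40 up as 1 class. Comparisons with a chromosome's own interior used density classes. Runs were named by a rule: per end, the 2 unmethylated and the 2 methylated runs with most positions, the 3 with the largest SD, the 2 steadiest at 0.4 to 0.6 and the 1 farthest out by coordinate. The 6 chromosomes named per end had at least 200 members and the 3 largest or smallest differences. Chromosomes 9, 12, 27, 32 and 33 and the chromosome 7 tip were named after their values were seen. No test compares positions or chromosomes, which share libraries. Correlations used 100000 permutations. The weighting was run on simulated data in which the level depended only on density and a fixed shift at the ends. This checks the calculation alone, since the simulation held no differences between chromosomes and no correlation between neighbouring positions. The members, the lists and the tests were chosen with earlier results of these data known. Software versions were NumPy 2.4.6 and SciPy 1.17.1 under Python 3.11.15, with Matplotlib 3.10.9 for plots.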

Additional observations from a re-analysis of the deposited data

How the results depend on the processing

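Values were recomputed 132 times, over all results and alternatives. Most alternatives changed 1 choice. Matching within chromosomes also weighted chromosomes equally and used density classes. Density within 500 bp or from the repeat table also raised the density from which positions form 1 class. Values at repeat-table positions came from the 7 libraries of that table, with density counted in it. The distal differences in unmethylated share, methylated share and mean fraction kept their direction under 16 of 16 alternatives each and the proximal ones under 15 of 15, while the sizes moved. In the order unmethylated share, methylated share, mean fraction and share of positions with an SD over 0.1 (shares in percentage points), the distal differences were -23.8, 19.9, 0.195 and 5.78 with a boundary at 1 Mb, -12.5, 11.5, 0.111 and 2.12 at 5 Mb, -14.0, 13.5, 0.123 and 2.38 with density counted within 500 bp, -13.8, 12.8, 0.121 and 2.63 with density from the repeat table, -21.9, 21.4, 0.208 and 2.24 within chromosomes weighted equally, and -9.83, 10.1, 0.0958 and 2.53 with 1 position per kb. Without the chromosome 7 tip, an alternative chosen after seeing the data, they were -15.9, 16.9, 0.157 and 1.10. Methylated share and mean fraction were 16.5 and 0.159 without chromosomes 27 and 32, and 16.6 and 0.160 against positions at least 10 Mb from both ends. The distal mean fraction differed by 0.159 with no matching and by 0.255 at repeat-table positions that the main table does not list. It differed by 0.261 at those over 100 bp away, which was also chosen after seeing the data. A methylated limit of 0.7 gave 16.3, an SD limit of 0.15 gave 2.102, and matching on density class and level, chosen after seeing the data, gave 2.90 for the SD share.

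In the order unmethylated share, methylated share and mean fraction, the proximal differences were -5.11, 5.23 and 0.0471 with a boundary at 2 Mb, -1.66, 2.37 and 0.0189 at 10 Mb, -4.18, 4.35 and 0.0394 with density within 500 bp, -5.95, 5.77 and 0.0541 with no matching, -9.16, 9.57 and 0.0880 within chromosomes weighted equally, -3.75, 4.004 and 0.0364 with 1 position per kb, -5.60, 5.80 and 0.0526 without chromosome 12, and -5.27, 5.45 and 0.0496 against positions at least 10 Mb from both ends. Without chromosomes 27 and 32 the methylated share and mean fraction were 5.09 and 0.0454. An unmethylated limit of 0.2 gave -4.78. Repeat-table positions outside the main table gave 0.0540 in mean fraction, and those over 100 bp away 0.0568 (chosen after seeing the data).

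The share of positions with an SD over 0.1 changed sign under 7 alternatives. With values as deposited it was -7.67 for distal and -2.45 for proximal positions. The proximal difference of 0.116 points was -0.589 with a boundary at 10 Mb, -0.543 within chromosomes weighted equally, -0.489 with 1 position per kb, -0.140 without chromosomes 27 and 32, and -0.134 without chromosome 12. The cause was not tested. No paired analysis was possible because no library could be tied to a labelled group, other than the description of 6 pairs of codes that share a number and the differences between ends and interior taken within each library. Read depth is unknown, so the noise of single fractions could not be separated from differences between dogs.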
